A study of Danio rerio with 6 samples.

Results

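The baseline transcriptome of red cones was described in wild-type (WT) larvae of the zebrafish, Danio rerio, aged 5 days post-fertilization. The 3 WT libraries were taken out of the 6 libraries of the series, and all 14781 genes of the deposited table were ranked by their mean over these 3 libraries. The cells came from eyes of larvae bred from WT fish and WT fish with 1 copy of the thrb:tdTomato reporter, a red fluorescent protein driven by regulatory sequence of the thyroid hormone receptor gene thrb. A fluorescence-activated cell sorter collected the red cells, with 10000 to 25000 cells per library from 40 to 50 eyes of 20 to 25 pooled larvae. Each library was a clutch of its own, so the 3 libraries are separate biological samples of pooled animals, and a subset of each clutch was genotyped. Each library was made from 300 pg of RNA with 14 cycles of complementary DNA amplification and 15 cycles of library amplification, and RNA integrity numbers lay between 7.4 and 8.4 over the sorted samples.

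Red cones are the photoreceptors of the zebrafish retina that are most sensitive to long wavelengths, and thrb is required for their identity. In every cone, light changes an opsin in the outer segment, the opsin activates the G protein transducin, and transducin releases a phosphodiesterase from its inhibitory subunit. The phosphodiesterase breaks down cyclic GMP, cation channels close, and release of glutamate at the cone synapse falls. Kinases, arrestins and calcium sensors then end the response, and guanylate cyclases restore cyclic GMP.

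The libraries held 15621680, 18911482 and 13435570 reads assigned to genes of the table in WT libraries 1, 2 and 3, and per-library values below are always given in that order. The unit throughout is the normalized count, the number of reads of a gene after division by the size factor of its library, and 3 reads correspond to 2.93 to 3.99 normalized counts. Normalized counts were not divided by transcript length, so the rank of a gene is its rank in reads and not in RNA molecules. Shares are percentages of a library's total in this table, and shares of a gene pair or a gene class are shares of reads for the same reason. The 4 markers of the cells were all abundant. The transcript of opn1lw2, a red opsin, ranked at position 1, with 1505207, 1479085 and 1693387 normalized counts. That of pde6h, the inhibitory subunit of the cone phosphodiesterase, ranked at position 2 with 1131182, 1177977 and 1035323. That of arr3a, a cone arrestin, ranked at position 3 with 623859, 467328 and 385215. The values of opn1lw2 and pde6h moved by at most 1.14-fold between libraries, whereas arr3a was 1.62-fold higher in library 1 than in library 3. The receptor gene thrb itself ranked at position 154 with 16439, 13546 and 12472 normalized counts. Every library thus carried reads of these 4 markers, which held 17.0% to 17.5% of all counts in each. Of them pde6h, at 6.07% of the counts, serves the phosphodiesterase of cones in general. Their sum therefore does not measure the red cone content of a library.

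A few genes took a large part of the counts. The gene opn1lw2 alone held 8.50% ± 0.838 of the counts (SD, n = 3), the top 3 genes held 17.2% ± 0.255, the top 10 held 27.7% ± 0.826 and the top 100 held 48.4% ± 0.473. The top 1000 genes, 1000 of 14781, held 78.1% ± 0.500. Grouped by known role, 12 of the top 30 genes were genes of phototransduction and held 25.1% ± 0.346 of all counts. Another 5 were genes of energy supply with 4.43% ± 0.306, and 5 encoded heat shock proteins and chaperones with 2.71% ± 0.390. Both retinoid-binding genes in the top 30 together held 2.51% ± 0.243, both disc rim genes 0.795% ± 0.0349, and the other 4 genes 1.602% ± 0.0798. The share of the phototransduction group moved least in relation to its size, while the chaperone group was at 3.15%, 2.45% and 2.52%, highest in library 1. Single genes of the phototransduction group moved in opposite directions. In library 3 arr3a was lowest, while opn1lw2 and the green opsin gene opn1mw1 were highest.

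**Figure D1:**
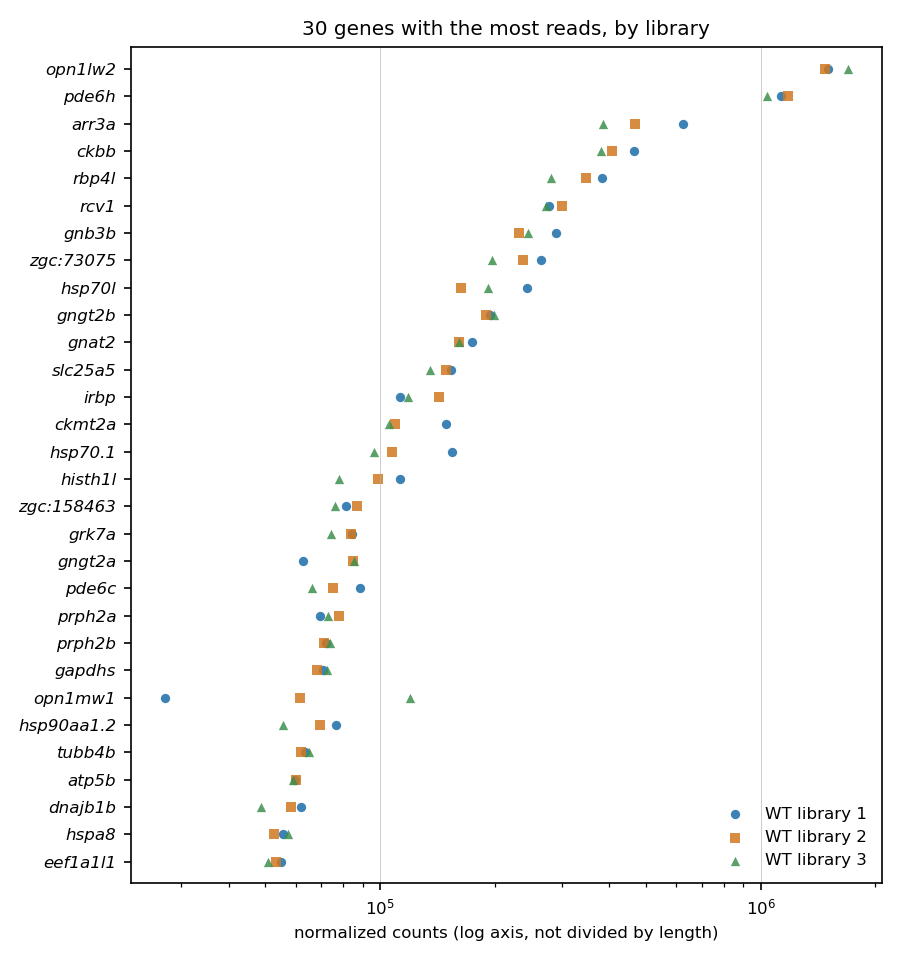
Normalized counts of the 30 genes with the highest mean over the 3 wild-type libraries, on a log axis. Each symbol is 1 library. The 3 symbols of opn1mw1, at 27237, 61511 and 119926, lie farthest apart, while those of atp5b, gngt2b and prph2b nearly coincide.

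Among opsins, opn1lw2 took nearly all reads of the red opsin genes, and its neighbour opn1lw1 had 2754, 1706 and 1620 normalized counts. The red opsin genes are a tandem array of similar sequence, and the handling of reads that fit both copies is not known from the sources used here, so the division between them is uncertain. Downstream of the opsins, the cone forms of the transducin subunits had many reads. The alpha subunit gnat2 had 174420, 161235 and 161531 normalized counts, a spread of 1.08-fold. The beta subunit gnb3b had 290508, 232250 and 244670, highest in library 1. The gamma subunit gngt2b had 194489, 190155 and 198625, within 1.04-fold in all 3 libraries. Its paralog gngt2a had 62620, 84906 and 85199 and was lowest in library 1. The catalytic subunit of the cone phosphodiesterase, pde6c, had 88727, 75454 and 66447 normalized counts, highest in library 1 as arr3a was. Together the 9 measured genes of the transducin and phosphodiesterase list held 10.5%, 10.5% and 10.1% of the counts, and 8 of the 9 were detected, here meaning at least 10 normalized counts in each library. The gene that did not reach this in each library was gnb5a, with a mean of 22.9 normalized counts. Its paralog gnb5b, which encodes a beta subunit of the shut-off complex, had a mean of 23294. Of all genes of the table, 8283 (56.0%) were detected, and the counts of detected genes below compare with that share.

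Genes that restore cyclic GMP and carry calcium had a smaller share, 0.346%, 0.323% and 0.296%, with 6 of 11 measured genes detected. The list names 20 genes, and those not measured add nothing to this share. The cyclase-activating protein gene guca1c led them with 23931, 24188 and 21694 normalized counts. The exchanger gene slc24a2, which removes calcium from cone outer segments, had 23545, 16561 and 13559, with library 1 above the other 2. The table's gc3, which RefSeq names gucy2d, encodes a guanylate cyclase of photoreceptors and had 10450, 8312 and 7248. It too was highest in library 1. By contrast guca1g was lowest there, at 4651, 6385 and 6785.

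Genes of response shut-off held 6.90%, 6.18% and 5.44% of the counts, and all 10 measured genes were detected. Recoverins, the calcium sensors that restrain opsin kinases, gave 2 of the 10 genes with the most reads. The gene listed as rcv1, rcvrn2 in RefSeq, had 278652, 300511 and 273183 normalized counts. The gene listed as zgc:73075, rcvrn3 in RefSeq, had 264666, 237505 and 197053, while rcvrna had 8171, 9594 and 7972. The cone opsin kinase gene grk7a had 84656, 83702 and 74534 normalized counts. A second opsin kinase gene, grk1b, had 15739, 16457 and 14977. The regulator of G-protein signalling rgs9a, which speeds the shut-off of transducin, had 15890, 15251 and 11600. The values of all 6 of these genes, like that of arr3a, were lowest in library 3. They are 7 of the 8 list members with a mean of at least 100. Of all 7192 genes with such a mean, 34.5% were lowest in library 3. With scaling to the library total (CPM) in place of the deposited scaling, 5 of the 8 were lowest in library 3.

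Outer segment genes build the membrane stacks that hold the opsin or carry proteins into them. Of 28 measured, 27 were detected, and they held 1.92%, 2.11% and 2.00% of the counts. The peripherin genes prph2a and prph2b, whose proteins shape the disc rim, were nearly equal in reads: prph2a had 69683, 77893 and 72898 normalized counts. The paralog prph2b had 72273, 71243 and 74000. Their order differed between libraries, with prph2a higher in library 2 only. Other leading members were arl3l1 with a mean of 48982 ± 2480 normalized counts, pdcb, a phosducin, with 42860 ± 8800, and unc119b, whose protein carries lipid-modified cargo, with 35602 ± 4630 (SD, n = 3). Retinoid handling was led by rbp4l, a retinol-binding protein gene, at 382627, 347981 and 280434. The interphotoreceptor retinoid-binding protein gene, listed as irbp and named rbp3 in RefSeq, had 112867, 143207 and 118437. The retinol dehydrogenase gene rdh8a had 13925, 14505 and 7365, with library 3 about 1.97-fold below library 2. Of 25 measured visual cycle genes 13 were detected, against 56.0% of all genes of the table. Among them rpe65b and rpe65c, members of the retinoid isomerase family, were at 0 in all 3 libraries.

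Energy supply genes held the largest share of counts in the top 30 after phototransduction. The cytosolic creatine kinase gene ckbb had 464662, 406541 and 379639 normalized counts, and the mitochondrial creatine kinase gene ckmt2a had 148684, 109442 and 105306. Both were highest in library 1. The mitochondrial ADP/ATP carrier gene slc25a5 had 153745, 148841 and 135656. In the list of creatine and adenylate kinases and the malate-aspartate shuttle, 23 of 30 measured genes were detected, with 4.97%, 4.43% and 4.33% of the counts. Glycolysis genes held 1.64%, 1.41% and 1.46%, with 32 of 44 detected. The glyceraldehyde-3-phosphate dehydrogenase gene gapdhs had 70810, 68276 and 72577 normalized counts, the aldolase gene aldocb 56188, 42452 and 41742, and the lactate dehydrogenase gene ldhba 34598, 32586 and 32519. Of the 29 glycolysis genes with a mean of at least 100, 23 were highest in library 1, against 34.0% of all 7192 such genes, and the count was 23 with CPM as well. Ion transport genes held 0.774%, 0.689% and 0.638%, with 22 of 27 detected and the sodium pump subunit genes atp1b2b and atp1a3a at means of 20761 ± 3010 and 12139 ± 1280 normalized counts (SD, n = 3).

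Detection was nearly complete in the machinery of translation and respiration, with 81 of 82 ribosomal protein genes, 68 of 68 mitochondrial ribosomal protein genes and 83 of 89 nuclear-encoded respiratory chain genes. They held 4.20% ± 0.174, 0.193% ± 0.00763 and 2.61% ± 0.0426 of the counts (SD, n = 3). Ribosomal protein genes were highest in library 2 in 51 of 81, against 33.8% of all genes, and in 49 of 81 with CPM. Which library was lowest depended on the scaling for these genes, with 35 lowest in library 1 and 41 in library 3 under the deposited scaling, and 49 and 27 with CPM.

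Heat shock genes stood among the genes with the most reads. The gene hsp70l, which encodes an inducible chaperone, had 243529, 163144 and 191992 normalized counts and ranked at position 9. The gene of a close copy, hsp70.1, had 154953, 107477 and 96289, and the division of reads between the pair is uncertain. The constitutive chaperone gene hspa8 had 55641, 52736 and 57265, the heat shock protein gene hsp90aa1.2 76568, 69696 and 55747, and the co-chaperone gene dnajb1b 62003, 58322 and 48580. The growth arrest gene gadd45ba had 43367, 45194 and 35213, and the immediate early gene fosab had 17431, 10308 and 8079. Of 54 measured stress and immediate early genes 48 were detected, with 4.21%, 3.47% and 3.47% of the counts. Among the 44 with a mean of at least 100, 20 were highest in library 1, beside the 34.0% of all genes. The rest of the top 30 were histh1l, a linker histone gene, with 112974, 98548 and 78256 normalized counts, the beta tubulin gene tubb4b, the elongation factor gene eef1a1l1 and the unnamed zgc:158463.

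Transcription factors of photoreceptors were detected in 43 of 50 measured genes, with 1.04%, 1.26% and 1.202% of the counts. The homeobox gene six7, known in zebrafish for its role in middle-wavelength cone opsin expression, had 26230, 36850 and 22378 normalized counts. The proneural factor gene neurod1 had 15366, 37012 and 33020, 2.41-fold between the lowest, library 1, and the highest, library 2. The photoreceptor homeobox gene crx had 22730, 29529 and 26615, and its relative otx5 had 14632, 13396 and 13272. The retinal homeobox gene rx1 had 10443, 14262 and 13169. The rod factor gene nr2e3 had 4109, 5419 and 6392 normalized counts. The gene samd7, a photoreceptor partner of the Polycomb repressive complex in mammals, had 8711, 7262 and 7075. It had the most reads among the Polycomb list, where 31 of 33 measured genes were detected with 0.133%, 0.136% and 0.126% of the counts. The retinoid X receptor gene rxrga, a partner of thrb, had 3371, 2686 and 3951. Of the other red cone genes listed, si:busm1-57f23.1 had 14351, 14105 and 28823, with library 3 about 2.04-fold above library 2.

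The 5 opsins other than red ones with a mean of at least 100 differed between the libraries by more than any of the 7 red cone genes listed did. Of all visual opsin counts, red opsins were 97.1%, 89.97% and 87.2%, green 1.78%, 3.85% and 6.31%, ultraviolet 0.256%, 2.18% and 2.29%, blue 0.251%, 0.488% and 0.565%, and rod opsin 0.586%, 3.52% and 3.62%. The 95% Wilson interval of each share was at most 0.0543 percentage points to either side, and within a class no intervals of different libraries overlapped. The intervals cover counting error only, since reads amplified by PCR without molecular identifiers are not independent molecules. The green opsin gene opn1mw1 had 27237, 61511 and 119926 normalized counts, with library 3 the highest. Without library 3 its mean is 44374, against 69558 with all 3 libraries. The green opsin genes opn1mw3 and opn1mw4 had no read in any of the 3 libraries, where a count of 0 allows up to 3.99 normalized counts, and the green opsin genes are another tandem array in which the division of reads is uncertain. The ultraviolet opsin gene opn1sw1 had 3982, 35806 and 44596, which is 11.2-fold between the extremes. The rod opsin gene rho had 9063, 57776 and 70290, or 7.76-fold. The blue opsin gene opn1sw2 had 3902, 8024 and 10982. The second detected green opsin gene, opn1mw2, had 419, 1851 and 2706. In each of these 5 genes library 1 was the lowest and library 3 the highest. The rod opsin-like gene rhol had 31.3, 135 and 47.9 normalized counts.

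**Figure D2:**
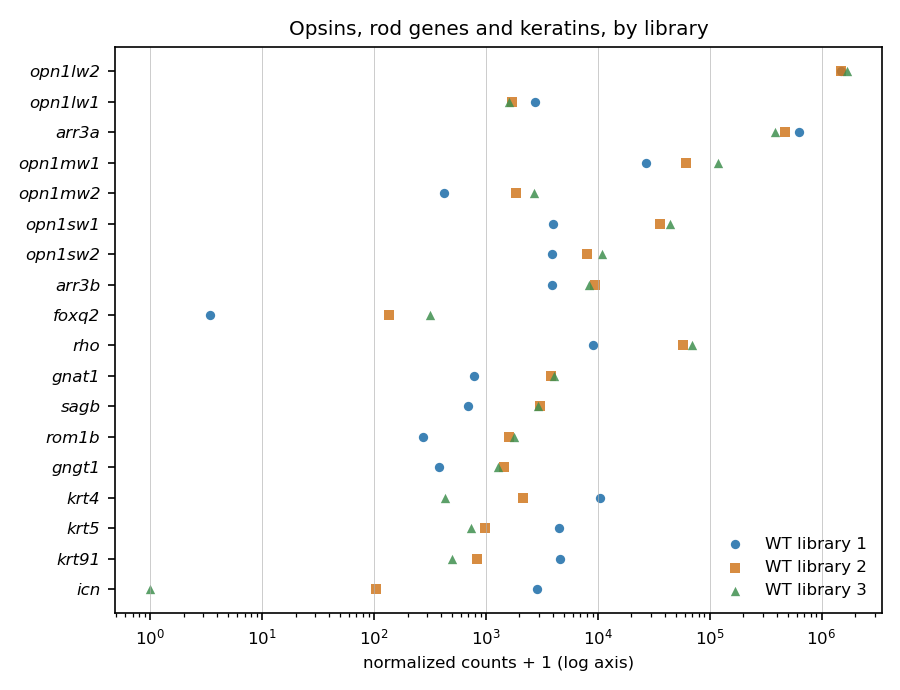
Normalized counts of named genes in each of the 3 wild-type libraries, plus 1, on a log axis, with 1 symbol per library. The genes opn1sw1, rho and gnat1 are lowest in library 1, and krt4, krt5, krt91 and the epidermal gene icn are highest there, while the 3 symbols of opn1lw2 almost coincide.

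Most other genes of rods were also lowest in library 1. The rod transducin gene gnat1 had 783, 3847 and 4056 normalized counts. The rod arrestin genes sagb and saga had 688, 3055 and 2901, and 996, 1871 and 2476. The disc rim gene rom1b had 275, 1599 and 1792. Of the 18 measured rod genes 16 were detected, and of the 13 with a mean of at least 100, 11 were lowest in library 1, against 33.6% of all genes, and 9 were highest in library 3, against 32.2%. Both counts were the same with CPM. The rod list was at 0.159%, 0.489% and 0.606% of all counts without rcvrn3, which the shut-off list also holds, and at 1.57%, 1.78% and 1.71% with it. The summed shares of the lists of the other cones, most of which lay in their opsin genes, six7 and arr3b, were also lowest in library 1 and highest in library 3. The genes six7 and arr3b themselves were highest in library 2, and six7 was lowest in library 3. The green cone list was at 0.312%, 0.576% and 0.839%, the blue cone list at 0.0417%, 0.0958% and 0.110%, and the ultraviolet cone list at 0.0621%, 0.260% and 0.317%. The arrestin gene arr3b, known from blue and ultraviolet cones, had 3922, 9499 and 8338 normalized counts. The blue cone factor gene foxq2 had 2.41 normalized counts in library 1, under the limit of 3 reads, and 136 and 319 in libraries 2 and 3. The factor genes tbx2a and tbx2b, which act in ultraviolet cones, were lowest in library 2, with 2448, 1740 and 2238, and 1278, 968 and 1410. Of the members with a mean of at least 100, 3 of 5 green, 3 of 3 blue and 2 of 4 ultraviolet cone genes were lowest in library 1. In bulk samples, more cells of a type and more RNA per cell cannot be told apart.

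Marker lists of the other retinal cell types held small shares. The horizontal cell list was at 0.131%, 0.110% and 0.126% of all counts, with 16 of 20 measured genes detected, led by ompa at 10363, 7907 and 8350 normalized counts. The amacrine cell list was at 0.147%, 0.106% and 0.122%. Of its 30 measured genes 13 were detected, against 56.0% of all genes of the table, and 11 were at 0 in all 3 libraries. A large part of the list's share lay in gad1b and slc32a1, which serve inhibitory transmission by GABA. Both were highest in library 1, at 8784, 5576 and 5921, and 7169, 4279 and 4537. Of the list's 11 members with a mean of at least 100, 5 were highest in library 1, against 34.0% of all such genes. Another 3 were highest in library 2 and 3 in library 3, and 4, 4 and 3 were lowest in libraries 1, 2 and 3. The bipolar list was at 0.0806%, 0.0830% and 0.0700% with 12 of 21 detected, and the bipolar gene vsx1 had a mean of 245 ± 107 normalized counts (SD, n = 3). The ganglion cell list was at 0.0204%, 0.0204% and 0.0220% with 11 of 26 detected. In it gap43, nefma, nefmb and stmn2a were at 0 in all 3 libraries.

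The Müller glia list held 0.401%, 0.454% and 0.525% of the counts, the most among the cell type lists other than photoreceptors and dividing cells. Its fatty-acid-binding protein gene fabp7a had 22757, 32493 and 39421 normalized counts, and the glutamine synthetase gene glula had 11416, 15898 and 18956. Both were lowest in library 1 and highest in library 3. The list's 16 members with a mean of at least 100 did not share this, with 7 lowest in library 1, 1 in library 2 and 8 in library 3, against 33.6%, 31.9% and 34.5% of all genes. In the same list apoeb, an apolipoprotein gene that macrophages also express, was highest in library 1 and lowest in library 3, at 14178, 12461 and 8656. The dividing cell list held 0.486%, 0.433% and 0.474% with 41 of 43 detected. It was led by hmgb2a at 26286, 23864 and 23502, and mki67, a proliferation marker, had 2767, 2327 and 2396. Of the 39 dividing cell genes with a mean of at least 100, 25 were lowest in library 2, against 31.9% of all genes, and 23 were with CPM.

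Reads of marker lists for cells outside the neural retina were spread unevenly over the libraries. Cornea and epidermis markers held 0.233%, 0.136% and 0.107% of the counts, with 14 of 31 measured genes detected, against 56.0% of all genes. Of the 18 with a mean of at least 100, 15 were highest in library 1, against 34.0% of all genes. Since only 14 were detected, some of the 18 reached that mean only through libraries where they were high. The count of 15 is therefore partly set by the limit on the mean. The keratin gene krt4 had 10449, 2154 and 433 normalized counts, krt5 had 4491, 991 and 736, and krt91 had 4581, 840 and 494. The keratan sulfate proteoglycan gene kera did not follow them, with 11781, 17098 and 15199. All 17 keratin genes together held 0.0666% ± 0.0714 (SD, n = 3), and 0.0259% as the mean without library 1. Lens markers held 0.0155%, 0.0193% and 0.00446%, and all 9 of those with a mean of at least 100 were lowest in library 3, against 34.5% of all genes. The crystallin gene crybb1 had 487, 536 and 136. Immune markers held 0.0897%, 0.0849% and 0.0594%. Most of this share lay in apoeb, with a mean of 11765 normalized counts, which the Müller glia list also holds. The immune share was not computed without it. Red blood cell markers held 0.00422%, 0.00722% and 0.00619%, and no haemoglobin gene of 6 was detected. Pigment epithelium, vascular and muscle markers held at most 0.00498%, 0.0112% and 0.0165%. What part cells of other types have in the level of any single gene was not tested.

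**Figure D3:**
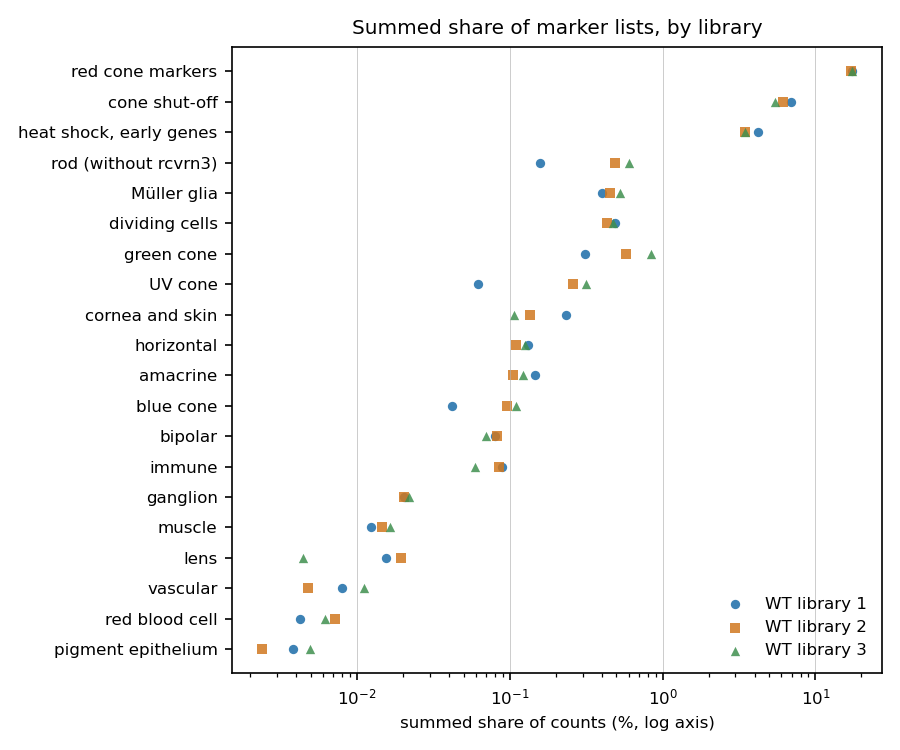
Summed share of all counts, in percent on a log axis, for the cell type lists and the shut-off and heat shock lists in each of the 3 wild-type libraries. Red cone markers sit at 17.0% to 17.5%, and the rod list, drawn here without rcvrn3, lies between 0.159% and 0.606%.

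Genes of the cone synapse held 1.59%, 1.64% and 1.53% of the counts, with 28 of 36 measured genes detected. The membrane fusion gene snap25b had 46765, 47389 and 46693 normalized counts, a coefficient of variation (CV, the SD divided by the mean) of 0.816%. The complexin gene cplx4a, which regulates vesicle release at ribbon synapses, had 48011, 37105 and 33730, and the synaptic vesicle gene sypb had 34742, 27185 and 26005. The synaptotagmin gene syt5b had 32272, 37701 and 34585, and the leucine-rich repeat gene lrit1b had 30288, 37510 and 31041. Calcium-dependent kinases and calmodulins held 0.423%, 0.414% and 0.364%, led by camk1ga with 18608, 21135 and 13843 normalized counts.

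Clock genes were detected in 42 of 43, the other being nfil3-4 at 0, and held 0.892%, 0.941% and 0.787% of the counts. The repressor gene bhlhe40 had 28866, 26812 and 25044 normalized counts, and nfil3-6 had 13334, 27630 and 14744, highest in library 2. The nuclear receptor gene nr1d2a had 10568, 12810 and 12871, and the light-induced clock gene per2 had 8161, 7687 and 4088. Of the 42 clock genes, each with a mean of at least 100, 26 were lowest in library 3, against 34.5% of all genes, and 23 were with CPM. The time of day at which larvae were taken is not given in the sources used here. Among opsins outside image-forming vision, 6 of 21 measured were detected. The melanopsin gene opn4.1 had 5054, 5945 and 5925 normalized counts, a spread of 1.18-fold, and zgc:158340, named opn6a in RefSeq, had 3827, 3663 and 3573, a spread of 1.07-fold.

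Pairs of paralogs were sought by name, as symbols that differ only in a final a or b, which gave 1500 pairs. Such a name does not prove a duplicated gene, since for example sdha and sdhb are subunits of 1 complex. Both members were detected in 684 pairs, 1 member in 398 and neither in 418. Of the 684 pairs, 553 had the same order in all 3 libraries, 180 differed at least 4-fold in each library and 84 at least 10-fold. The a member had the higher mean in 368 and the b member in 316. The share of a pair's reads that its a member took had a median SD of 5.18 percentage points over the 3 libraries.

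In 7 of the 12 pairs with the most reads, 1 member held nearly all of them. The arrestin arr3a took 99.4%, 98.0% and 97.9% of its pair's reads. The transducin gene gnb3a took 0.0521%, 0.0805% and 0.0343% of the pair with gnb3b, and the creatine kinase ckba took 0.0189%, 0.165% and 0.0382% of the pair with ckbb. The kinase grk7a took 99.9%, 100% and 99.8%, ckmt2a took 99.4%, 98.8% and 98.7%, and dnajb1a took 0.327%, 0.570% and 0.575%. The fusion gene snap25a took 0.925%, 0.640% and 0.547%. Other pairs of this rank were shared between both members. The peripherin prph2a took 49.1%, 52.2% and 49.6%, gngt2a took 24.4%, 30.9% and 30.02%, and syt5a took 45.4%, 38.8% and 39.8%. The pair ndrg1a and ndrg1b, related to stress and differentiation, gave 47.4%, 42.6% and 47.6% to its a member, and ppdpfa took 73.8%, 75.6% and 69.0%.

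Pairs within the pathway lists differed in how far their division moved between libraries. The lactate dehydrogenase ldhba took 85.6%, 83.9% and 86.2%, and the pyruvate kinase pkma took all reads, with pkmb at 0. The synaptophysin sypa took at most 0.0251% in any library. The sodium pump genes atp1a3a and atp1a3b exchanged order, with atp1a3a at 47.2%, 52.5% and 60.6%. The glutamate transporter slc1a2a took 88.8%, 79.4% and 64.7%, a range of 24.1 points. The polarity gene crb2a took 25.7%, 11.4% and 10.8%, highest in library 1. The clock gene nr1d2a took 56.1%, 66.4% and 71.1%, and rdh8a took 81.0%, 76.9% and 69.3%. Among pairs with a summed mean of at least 1000, prelid1 moved most, with prelid1a at 32.0%, 73.8% and 65.6%, followed by ranbp3a at 52.94%, 27.4% and 15.1%. In 138 of all 684 pairs, here with no limit on the summed mean, the range between libraries was 20 points or more. Pairs with few reads are included, and the spread between libraries was wider at low counts.

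**Figure D4:**
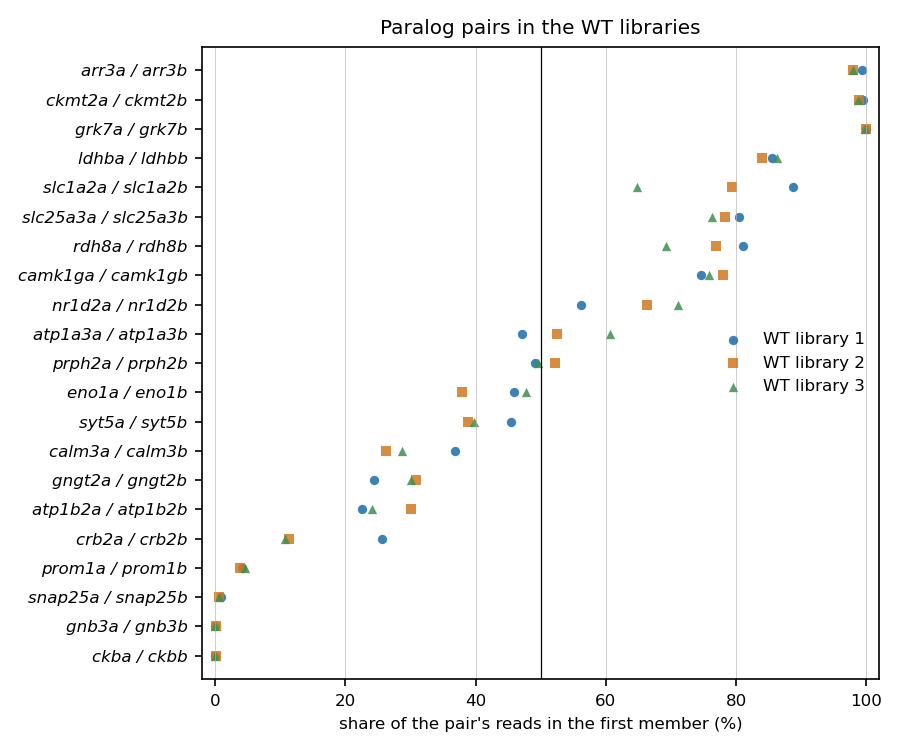
Share of a pair's reads taken by the a member, in percent, for paralog pairs of the lists, with 1 symbol per wild-type library and a line at equal shares. The pairs arr3, ckmt2, grk7, snap25, gnb3 and ckb sit near 0% or 100%, while prph2 lies near the middle at 49.1% to 52.2% and slc1a2 extends over 24.1 points.

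Of the 14781 genes, 8283 (56.0%) were detected, 1185 reached 10 normalized counts in 2 libraries, 1421 in 1 library and 3892 in none, and 3037 were at 0 in all 3. The median detected gene had a mean of 412 normalized counts, and the range from the 10th to the 90th percentile was 78.1 to 3033. A mean of at least 1000 was reached by 2236 genes, of at least 10000 by 232 and of at least 100000 by 15. Classes defined by name differed in completeness. Detected were 39 of 45 proteasome subunit genes, 57 of 77 znf genes, 38 of 73 cadherins and protocadherins and 140 of 285 solute carriers. Detection was sparse for potassium channel genes with 6 of 59, collagens with 5 of 27, chemokines and interleukins with 8 of 73, and microRNA genes with 15 of 342. Hox genes, which set body position, were detected in 0 of 48, with 45 at 0 in every library, and olfactory and taste receptor genes in 0 of 177, with 174 at 0. Genes listed under a clone or predicted name with a colon numbered 1783, of which 686 were detected, and they held 4.81%, 4.74% and 4.68% of the counts. Some of them have another name in RefSeq, such as zgc:73075 (rcvrn3), which alone held 1.27% of the counts. The gene with the most reads among those that RefSeq also knows by no other name, zgc:158463, ranked at position 17 with 81355, 86848 and 76058 normalized counts.

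The spread between libraries narrowed with abundance. Over the 7192 genes with a mean of at least 100, the median CV was 24.2%, with quartiles of 13.6% and 39.5%, where counting error alone would give a median of 4.71%. From means of 100, 300, 1000, 3000 and 10000 upward, in bins of 2300, 2656, 1395, 609 and 232 genes, the median CV was 40.3%, 25.0%, 15.9%, 11.8% and 9.94%. The values that counting error gives in these bins were 8.03%, 4.68%, 2.73%, 1.57% and 0.818%, so that in each bin the spread was several times the counting error. Counting error here treats each read as independent, which reads amplified by PCR without molecular identifiers are not. The error of sampling RNA molecules can therefore be larger than these values. Across these genes, which are not independent replicates, log values of libraries 1 and 2 had a Pearson r of 0.884, libraries 1 and 3 of 0.874 and libraries 2 and 3 of 0.873. The median absolute log2 difference was 0.39, 0.40 and 0.39 for the same pairs of libraries. Values differed more than 2-fold in 16.4%, 17.0% and 17.0% of the genes, so no pair of libraries was closer than the others by much.

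**Figure D5:**
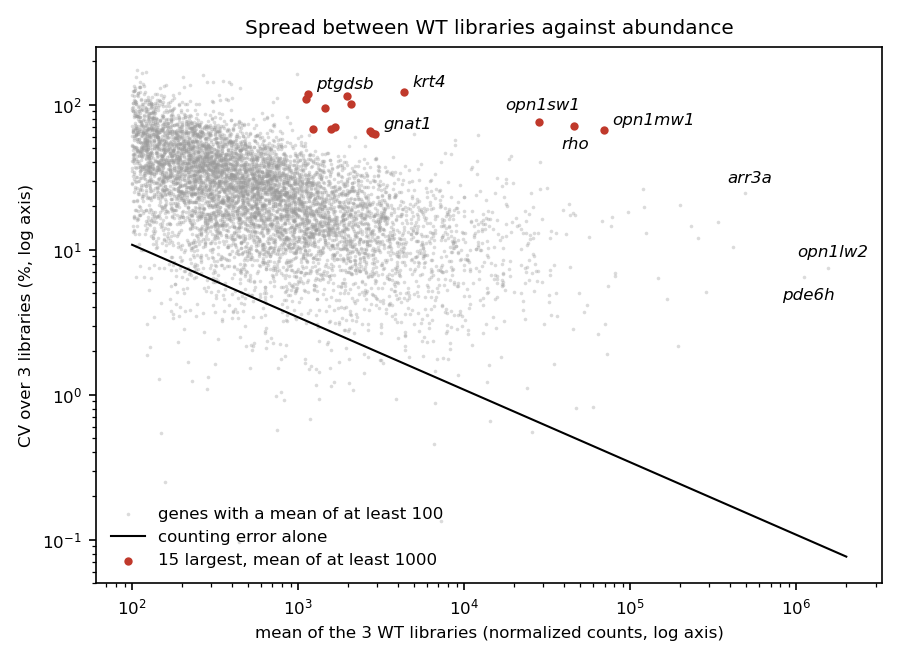
Coefficient of variation over the 3 wild-type libraries, in percent, against the mean normalized count on a log axis, with 1 point per gene with a mean of at least 100. The black line is the value counting error alone gives and lies below most points, and the red points are the 15 genes with the largest spread at a mean of at least 1000.

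Among the 2236 genes with a mean of at least 1000, the CV spanned a wide range. In 29 of them the CV was above 50%, and in 692 it was below 10%. Of the 15 with the largest CV, 8 were highest in library 1, 1 in library 2 and 6 in library 3. The shares were 34.0%, 33.8% and 32.2% over all 7192 genes with a mean of at least 100. These 15 were picked by their spread over the same libraries, and the shares come from a wider set than the 2236 genes. The counts therefore only describe the picked genes. The keratins krt4, krt91, krt97 and krt5 had CVs of 123%, 115%, 110% and 101%, all with library 1 highest. The prostaglandin D synthase gene ptgdsb, with 2710, 397 and 311 normalized counts, the mitochondrial gene prelid1b with 3047, 611 and 698, the fatty acid oxidation gene hadhb with 2816, 869 and 1061, and the profilin gene pfn1 with 4740, 1810 and 1536 were also highest in library 1. Without library 1 the means of these 8 genes move by more than 1.5-fold, for krt4 to 1293, for ptgdsb to 354, for krt91 to 667, for krt97 to 436, for krt5 to 863, for prelid1b to 654, for hadhb to 965 and for pfn1 to 1673. The means of ptgdsb, krt91, krt97, krt5, prelid1b and hadhb are then below 1000. These genes thus reached the limit only through library 1, where they were high. Those lowest in library 1 were opn1sw1, rho, opn1mw2, rom1b, opn1mw1, gnat1 and zgc:162858, the last with 742, 3931 and 3641. Apart from zgc:162858, for which RefSeq gives no other name, these are opsins of other photoreceptors and members of the rod list. Of them rom1b, highest in library 3, had a mean of 937 without that library, also below 1000.

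Of the 10 genes with the smallest CV, 8 had a CV below the value that counting error gives, so their order has no meaning. The ribosomal protein gene rpl39 had 7240, 7244 and 7225 normalized counts, and ndufc2, a subunit of respiratory complex I, had 1993, 1988 and 1987. Their CVs of 0.135% and 0.150% are below the 1.27% and 2.42% that counting error gives. Of the other 8 in the lowest 10, rplp1, rpl6 and rpl36a encode ribosomal proteins, atp5b an ATP synthase subunit, cct5 a chaperonin subunit and hint1 a nucleotide hydrolase, and snap25b and si:ch73-141c7.1 complete the list.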

How the data were processed

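RNA of sorted thrb:tdTomato+ cells was sequenced in paired reads of 150 bases, per the labels' protocols. The submitters' processing notes name R 4.1.3, DESeq2 1.34.0, HTSeq 0.9.1, STAR 2.7.2b, Trim Galore 0.6.1 and the danRer10 build, without their order or settings. The sources used here give no annotation, no strand setting and no rule for reads shared by similar genes. The library columns deposited by the authors hold a signal that is a count of reads divided by a size factor per library. Whole reads were recovered for 100% of values above 0, within 0.01 read. The deposited WT mean differed from the mean of the 3 columns by at most 0.000333. The columns of the mutant libraries and of the genotype comparison were not used here.

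Genes were ranked by their mean over the 3 WT libraries, and a gene was called detected at 10 or more normalized counts in each library. CVs were compared with the value that counting error gives for the recovered reads. Of 983 distinct symbols in the gene lists, 767 matched the table directly and 42 through a RefSeq synonym, and 174 were not matched. The share of a list covers its measured members only, such as 28 of 50 outer segment genes and 36 of 57 synapse genes. RefSeq names came from assembly GRCz12tu, which is another build than that of the files, so no coordinates are given. The members and lists were chosen with earlier results of these data known. Genes named are the top 30, the markers, every visual opsin, up to 6 leading members of each list and its defining markers at 0, the 12 paralog pairs with the most reads and pairs within the lists, and the 15 largest and 10 smallest CVs at means of at least 1000; further members of these lists, the pairs prelid1 and ranbp3 and some genes of clear contrast were added after their values were seen. No test was run, since the 3 libraries form 1 group. Calculations used Python 3.11.15, pandas 2.3.3, numpy 2.4.6, scipy 1.17.1 and matplotlib 3.10.9, and the read recovery and CV calculations were tested on simulated data.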

Additional observations from a re-analysis of the deposited data

How the results depend on the processing

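Of 280 recomputed values, 267 stayed within the spread between libraries or within 1.5 times the count, and 13 were labelled as moved. Every alternative of the median CV and of the median SD of log2 values got this label without either limit being applied. For those values the label therefore says nothing about the size of the change. Of the 267, 216 were summed shares of lists, with 1 library left out or as the median. Such values always lie within 1 SD of the mean over 3 libraries, so they could not move. The same holds for opsin shares with 1 library left out. These values therefore do not show stability. The keratin share stayed within its SD although it fell from 0.0666% to 0.0259% without library 1. The median CV of 24.2% was 33.6% at means of at least 10, 40.1% with no filter on low values and 24.19% with scaling to the library total (CPM). With each library left out in turn it was 18.7% to 19.4%. A CV or SD over fewer libraries has a lower median at equal spread, so such values cannot be compared with those over 3 libraries. The median SD of log2 values was 0.35 with a pseudocount of 1 and 0.34 with a pseudocount of 10, and 0.27 to 0.28 with each library left out in turn. Of the 684 paralog pairs with both members detected, 84 differed at least 10-fold in each library. This count was 31 when detection required 100 normalized counts and 180 when a 4-fold difference was enough. Pairs whose lower member is under the detection limit are not counted, and a higher limit leaves out more of them. The count is therefore not the number of all pairs in which 1 member dominates. The rod list held 1.68% of the counts, and 0.418% without rcvrn3. That alternative and the one keeping only pairs whose shared stem ends in a digit, which left 474 pairs with both members detected and 59 at least 10-fold apart, were chosen after seeing the data. Detected genes numbered 8937 with no filter, 6136 at a limit of 100 normalized counts, 7987 at 1 CPM, and 8526 to 8788 with each library left out in turn. The same 10 genes led under every ranking tried, and 97 to 100 of the top 100 were shared. CPM scaling moved every gene of a library by the same amount, at -0.032, -0.0054 and 0.039 on the log2 scale in libraries 1, 2 and 3. The alternatives that divide by coding length were not run, as no lengths were used here. No paired analysis was possible because only the WT group enters and no result comes from a test.

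The limits are those of 3 libraries of pooled larvae with no measured time of day and no count of sorted cells per type. At means from 100 to 300 normalized counts the median CV is 40.3%, so differences between libraries in such genes are poorly resolved. Of the genes with a mean of at least 10, 13.2% were at 0 in at least 1 library, against 0.584% at means of at least 100. Shares are shares of the rows of this table.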
